A study of Homo sapiens with 3 samples.

Results

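The ZBTB genes encode transcription factors that join an amino-terminal BTB domain to carboxy-terminal C2H2 zinc fingers. The members described here were the rows of the expression table whose Ensembl identifier maps to a symbol made of ZBTB, digits and at most 1 letter, together with BCL6, BCL6B, PATZ1, HIC1, HIC2 and MYNN, and without ZBTB48 itself. This gave 46 of the 19869 genes in the table. ZBTB8OS, whose symbol also starts with ZBTB and a digit, lies beside ZBTB8A but encodes no zinc finger factor and was left out of all counts. It stood at 17.5 FPKM in the HKR3 library, 21.3 FPKM in the library labelled siTERT and 27.0 FPKM in the NT-Empty library. FPKM counts fragments per kilobase of transcript and scales them to library size, so that levels can be set side by side between genes of different length.

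The cells were Hep3B, a line grown from a human hepatocellular carcinoma, and RNA sequencing was done on 3 libraries with 1 library per group. The HKR3 library came from cells transfected with a pcDNA3.1 plasmid that expresses HKR3, the older name of ZBTB48. The library labelled siTERT came from cells given an siRNA aimed at TERT, the catalytic subunit of telomerase, and the NT-Empty library came from control cells whose treatment label names the transfection reagent Fugene. The protocol shared by all groups describes transfection with siRNAs and the pcDNA3.1 vector using Fugene HD, and the sources used here do not say which nucleic acid the control cells received. The comparison asked of these genes is whether factors related to ZBTB48 move when ZBTB48 is overexpressed.

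The BTB domain pairs the proteins with each other and binds co-repressors such as BCOR, while the zinc fingers choose the DNA sequence. Most characterised members repress transcription, and several act on the cell cycle, on blood cell differentiation or at methylated CpG sites. In mouse liver, ZBTB20 is known as the repressor that silences AFP after birth.

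ZBTB48 stood at 2842 FPKM in the HKR3 library, 4.89 FPKM in the library labelled siTERT and 4.91 FPKM in the NT-Empty library, where it ranked 18 among the 47 genes of the family. TERT stood at 5.37 FPKM in the library labelled siTERT and 4.69 FPKM in the NT-Empty library, so the knockdown named by the label was not visible in TERT RNA, and directions in that library belong to its label alone. There was 1 library per group, so the variation between cultures is unknown and no test was made. A size rule took its place, a difference of 2-fold or more on log2(FPKM + 1) among the 10974 genes whose mean over the 3 libraries reached 1 FPKM. The libraries held an estimated 11300000 fragments (HKR3), 11400000 (siTERT) and 10100000 (NT-Empty), and the 37 members that passed the filter had between 24.4 and 666 estimated fragments in the NT-Empty library, with a median of 155. The 95% exact binomial intervals given with FPKM ratios cover the counting of fragments only, not differences between cultures. All 8 liver and hepatoma markers were present, summing to 7152 FPKM in the HKR3 library, 9824 FPKM in the library labelled siTERT and 9893 FPKM in the NT-Empty library. Of 8 leukocyte, endothelial and fibroblast markers in the table, PTPRC, CD3E, CDH5 and DCN were listed at 0 throughout and 2, LYZ and CD68, had a mean of at least 1 FPKM. The list summed to 239.7 FPKM in the HKR3 library, 436 FPKM in the library labelled siTERT and 425 FPKM in the NT-Empty library. Most of each sum was LYZ alone, at 210, 392 and 392 FPKM in that order, so the sums do not describe a cell type. The part of either marker list in the results was not tested. In bulk RNA, fewer cells of a type and less RNA per cell cannot be told apart.

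The promoters of the members with the largest differences are shown because the comparison asks about a telomere-binding zinc finger factor, whose known DNA repeat, TTAGGG, can be looked for in them. Of the 6 members at least 2-fold higher in the HKR3 library, 5 have an entry in the RefSeq promoter table (build GRCh38.p14), which covers 250 bases before to 50 bases after each gene start. The ZBTB21 promoter is chr21:42010311-42010610 (minus strand), that of BCL6 chr3:187745419-187745718 (minus strand), that of ZBTB2 chr6:151391510-151391809 (minus strand), that of ZBTB11 chr3:101677083-101677382 (minus strand) and that of ZBTB49 chr4:4290001-4290300 (plus strand). Capitals mark matches, on either strand, to TTAGGG, to the cAMP response element TGACGTCA, to the AP-1 element TGACTCA and to the E-box CACGTG.
ZBTB21 promoter: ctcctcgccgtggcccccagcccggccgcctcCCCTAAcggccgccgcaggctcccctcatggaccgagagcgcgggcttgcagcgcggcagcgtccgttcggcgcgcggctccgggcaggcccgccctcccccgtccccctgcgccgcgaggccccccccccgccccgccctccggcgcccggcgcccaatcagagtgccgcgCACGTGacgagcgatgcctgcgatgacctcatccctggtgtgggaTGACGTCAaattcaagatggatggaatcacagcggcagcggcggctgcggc
BCL6 promoter: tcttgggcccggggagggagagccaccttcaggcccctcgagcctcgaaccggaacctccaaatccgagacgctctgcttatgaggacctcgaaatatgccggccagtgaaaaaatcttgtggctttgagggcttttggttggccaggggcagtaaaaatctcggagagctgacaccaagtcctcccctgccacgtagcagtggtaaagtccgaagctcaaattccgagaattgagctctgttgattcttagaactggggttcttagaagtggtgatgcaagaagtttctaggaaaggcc
ZBTB2 promoter: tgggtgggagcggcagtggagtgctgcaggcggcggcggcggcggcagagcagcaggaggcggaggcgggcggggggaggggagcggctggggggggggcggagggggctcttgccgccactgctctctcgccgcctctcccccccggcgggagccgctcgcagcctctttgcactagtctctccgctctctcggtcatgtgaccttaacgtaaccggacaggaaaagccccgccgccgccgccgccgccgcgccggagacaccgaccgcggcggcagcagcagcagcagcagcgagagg
ZBTB11 promoter: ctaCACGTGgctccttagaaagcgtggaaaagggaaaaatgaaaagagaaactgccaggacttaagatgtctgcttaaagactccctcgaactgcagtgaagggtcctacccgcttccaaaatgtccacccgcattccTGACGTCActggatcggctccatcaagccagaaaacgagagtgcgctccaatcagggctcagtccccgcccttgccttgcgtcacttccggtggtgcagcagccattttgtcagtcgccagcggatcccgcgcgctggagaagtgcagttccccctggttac
ZBTB49 promoter: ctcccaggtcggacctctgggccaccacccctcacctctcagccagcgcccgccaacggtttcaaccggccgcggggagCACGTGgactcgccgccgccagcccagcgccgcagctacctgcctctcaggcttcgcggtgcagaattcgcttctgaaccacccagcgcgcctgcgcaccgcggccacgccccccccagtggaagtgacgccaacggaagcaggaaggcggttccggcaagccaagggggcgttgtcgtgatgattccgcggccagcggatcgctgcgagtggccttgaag

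The telomeric hexamer was found in the ZBTB21 promoter, as its reverse complement CCCTAA, and in none of the other 4 shown. Over the 37 members with a promoter entry, 3 (ZBTB21, ZBTB43 and ZBTB8A), or 8.11%, held it, beside 8.94% of all 27305 promoters in the table. The other 3 motifs were added after the values had been seen. The cAMP response element was in 2 member promoters, ZBTB11 and ZBTB21, or 5.41%, beside 1.98% of all promoters, and both belong to members at least 2-fold higher. The E-box was in 7 member promoters, or 18.9%, beside 7.43% of all promoters. They were those of ZBTB1, ZBTB11, ZBTB21, ZBTB24, ZBTB32, ZBTB37 and ZBTB49, and 3, ZBTB11, ZBTB21 and ZBTB49, belong to members at least 2-fold higher. Of the 37 members with a promoter entry, 31 passed the filter, and 5 of these 31 held the E-box. The AP-1 element was in 1, that of ZBTB20, or 2.70%, beside 4.92% of all promoters. Promoters of the members had a median GC content of 65.3%, beside 58.3% over all promoters. None of the 4 motifs overlapped another in the 5 promoters shown, and a match describes letters, not binding.

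In the HKR3 library the ZBTB family was shifted upward as a group. Of the 37 members measured, 30 were above the NT-Empty library, beside 48.6% of all genes tested. The median log2 difference of the members was 0.57, beside -0.02 over all genes, with quartiles of 0.12 and 0.89. At least 2-fold higher were 6 members, ZBTB21, BCL6, ZBTB2, ZBTB11, ZBTB49 and ZBTB40, or 16.2%, beside 5.52% of all genes. None was at least 2-fold lower, beside 2.52% of all genes. At least 1.5-fold higher were 18 members, beside 15.3% of all genes, and at least 1.5-fold lower was 1, ZBTB47, beside 12.7% of all genes. The counting interval of the ratio lay above 1 for 25 members, beside 30.9% of the genes with a transcript length, and below 1 for PATZ1, ZBTB12 and ZBTB47, beside 33.0% of those genes.

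**Figure D1:**
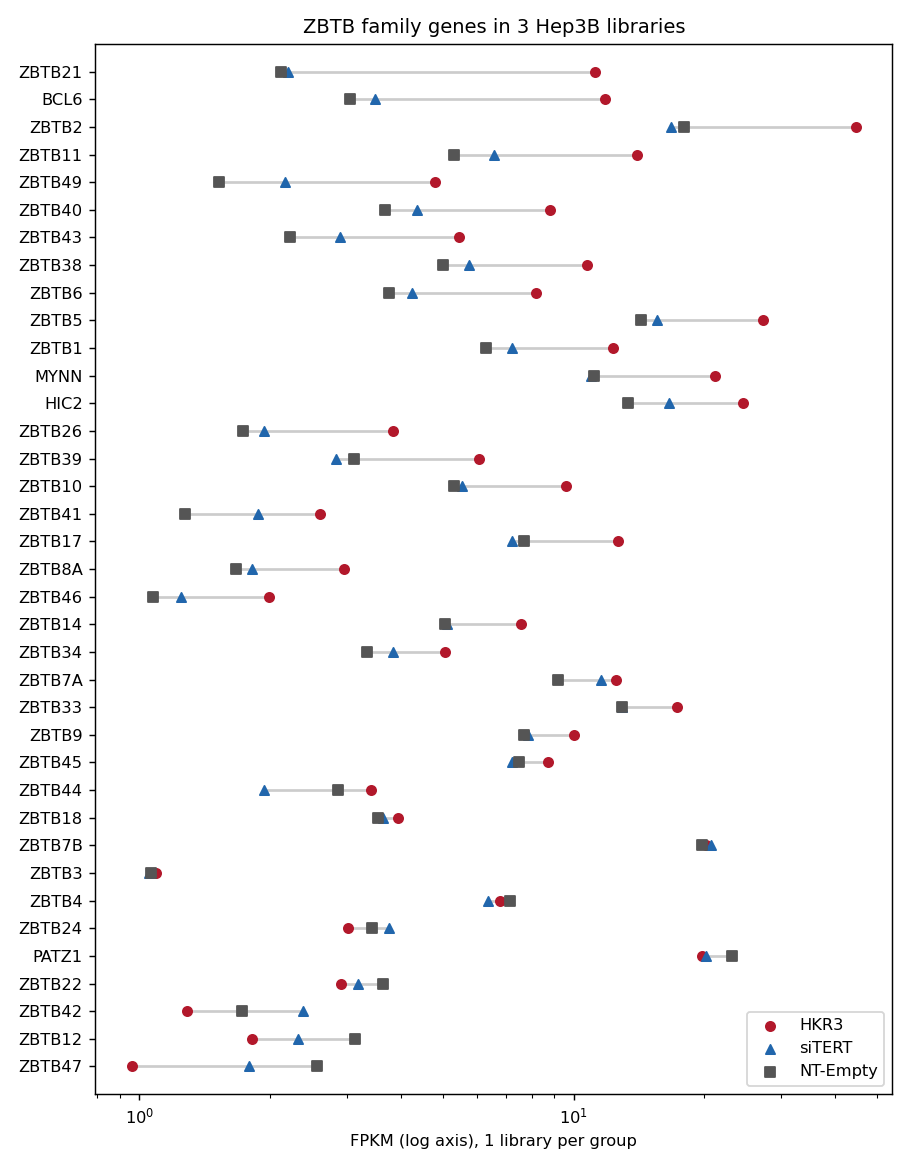
FPKM on a log axis of the 37 ZBTB family genes that passed the filter, in the HKR3 (circles), siTERT (triangles) and NT-Empty (squares) libraries, 1 library each, ordered by the difference between HKR3 and NT-Empty. The circle lies to the right of both other symbols for 29 genes and to the left of both for 6.

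Members lay closer to the control in the library labelled siTERT. Their differences from the NT-Empty library ran from -0.40 for ZBTB44 to 0.34 for ZBTB41, with a median of 0.07 beside -0.01 over all genes. No member reached 2-fold in either direction, beside 0.282% of all genes higher and 0.200% lower. None reached 1.5-fold either, beside 1.69% of all genes higher and 1.24% lower. Members above the control numbered 25 of 37, beside 47.4% of all genes. The counting interval lay above 1 for ZBTB40, ZBTB43, HIC2, ZBTB41 and ZBTB7A, beside 12.3% of genes, and below 1 for ZBTB44 and PATZ1, beside 15.3% of genes. The HKR3 and siTERT comparisons share 1 control, so their differences are not independent. Set directly against the library labelled siTERT, the HKR3 library had a members' median difference of 0.49.

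The HKR3 library was also set against both other libraries at once. The same HKR3 values enter both comparisons, and the other libraries lay within 1.5-fold of each other for all 37 members, so this is no separate support. The HKR3 library held the highest of the 3 values for 29 members, beside 42.8% of all genes, and the lowest for 6 members, beside 44.8% of all genes. The 6 were ZBTB24, PATZ1, ZBTB22, ZBTB42, ZBTB12 and ZBTB47, and ZBTB7B and ZBTB4 lay in between. At least 2-fold above both other libraries were 3 members, ZBTB21, BCL6 and ZBTB2, beside 3.67% of all genes. None was at least 2-fold below both, beside 1.03% of all genes.

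**Figure D2:**
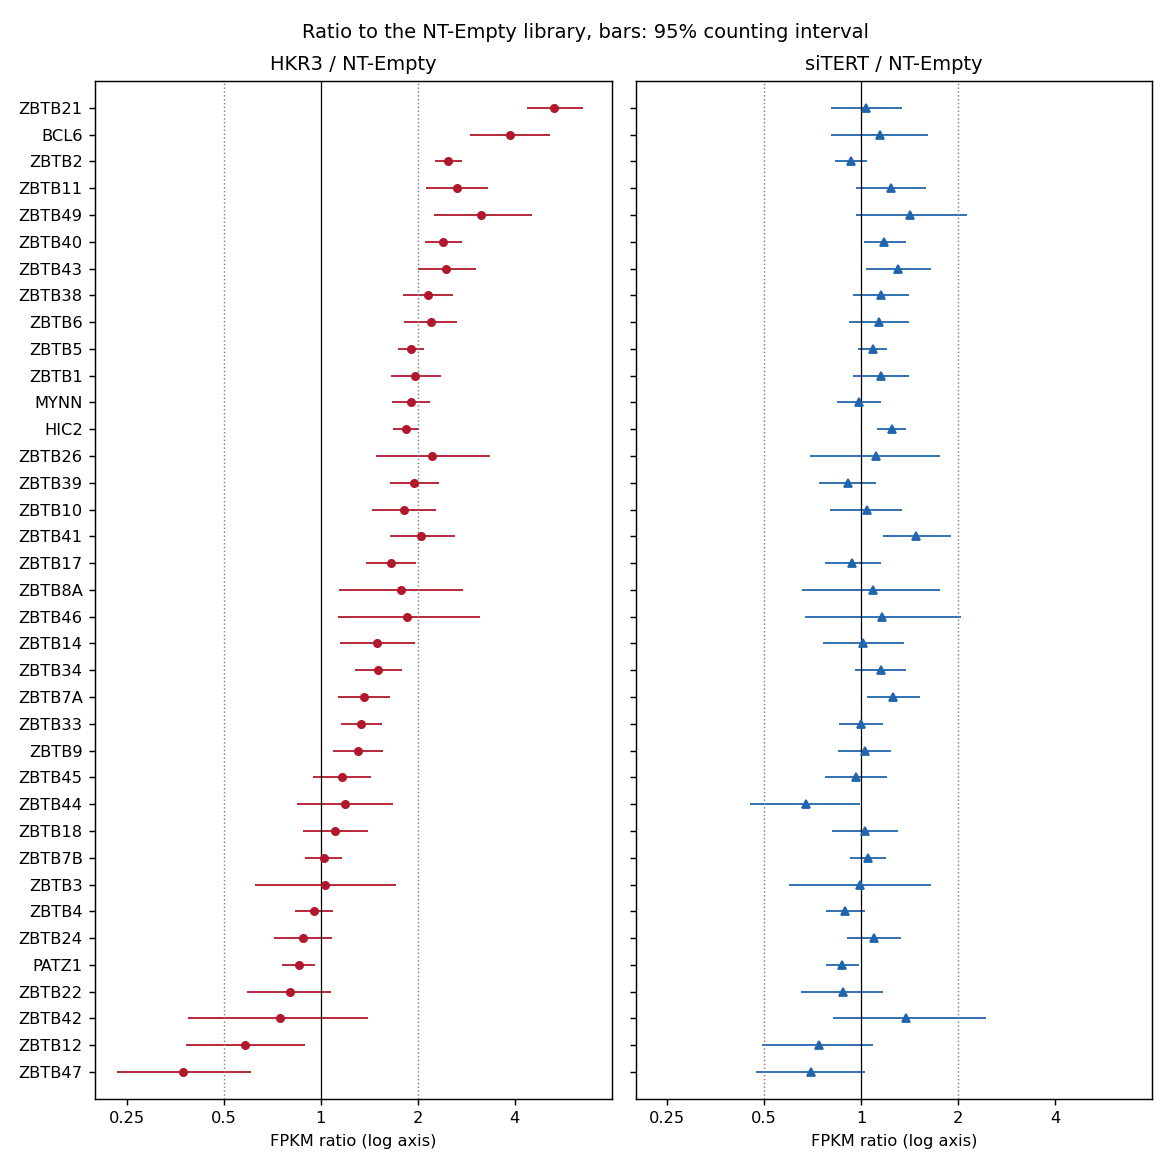
FPKM ratio to the NT-Empty library, on a log axis, of the same 37 genes for the HKR3 library (left) and the library labelled siTERT (right), with bars for the 95% counting interval on estimated fragments and dotted lines at 0.5 and 2. On the left the points run between 0.374 for ZBTB47 and 5.29 for ZBTB21, and on the right they stay within 1.5-fold on the log2(FPKM + 1) scale.

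ZBTB21, also known as ZNF295, is a repressor that binds its relative ZBTB14, and had the largest difference of the family. It stood at 11.2 FPKM in the HKR3 library, against 2.2 FPKM in the library labelled siTERT and 2.12 FPKM in the NT-Empty library. The HKR3 value was 5.29 times the NT-Empty value, with a counting interval from 4.37 to 6.5, and the difference was 1.97 on log2(FPKM + 1). The siTERT and NT-Empty libraries lay within counting error of each other for this gene. Its partner ZBTB14 stood at 7.56, 5.12 and 5.06 FPKM in the HKR3, siTERT and NT-Empty libraries, a ratio of HKR3 to NT-Empty of 1.49.

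BCL6, the repressor that maintains germinal centre B cells and is rearranged in lymphomas, followed. It stood at 11.8 FPKM in the HKR3 library, against 3.50 FPKM in the library labelled siTERT and 3.06 FPKM in the NT-Empty library. The ratio of HKR3 to NT-Empty was 3.87, with a counting interval from 2.91 to 5.16. The HKR3 value stood apart, at 3.39 times the siTERT value as well. Of the BCL6 exon bases, 8.24% lie opposite exons of other genes in GENCODE 29, and the sources used here do not say whether counting used strand. The paralogue BCL6B was at 0.0262, 0 and 0.0291 FPKM in the HKR3, siTERT and NT-Empty libraries, about the value of a single fragment.

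The next 6 measured genes, ZBTB2, ZBTB49, ZBTB5, ZBTB17, HIC2 and ZBTB9, were grouped around known regulators of cyclin-dependent kinase inhibitor genes, a role not given here for HIC2 and ZBTB9. All 6 were above the NT-Empty library in the HKR3 library, beside 48.6% of all genes and 81.1% of the family, with a median difference of 0.86. ZBTB2 and ZBTB49 were at least 2-fold higher, beside 5.52% of all genes and 16.2% of the family. ZBTB2, a repressor of CDKN1A, stood at 44.8 FPKM in the HKR3 library, against 16.7 FPKM in the library labelled siTERT and 18.0 FPKM in the NT-Empty library. That made it the highest member in the HKR3 library, whereas PATZ1 was the highest in the NT-Empty library. The ZBTB2 ratio of HKR3 to NT-Empty was 2.49, with a counting interval from 2.26 to 2.75. ZBTB49, an activator of CDKN1A that works with ZBTB17, stood at 4.79, 2.17 and 1.53 FPKM in the HKR3, siTERT and NT-Empty libraries, a ratio to NT-Empty of 3.14 with an interval from 2.25 to 4.52.

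ZBTB5, another repressor of CDKN1A, stood at 27.3 FPKM in the HKR3 library, against 15.6 FPKM in the library labelled siTERT and 14.3 FPKM in the NT-Empty library, a ratio of 1.91 with an interval from 1.74 to 2.09. HIC2, a repressor of BCL11A in red cell precursors, stood at 24.5 FPKM in the HKR3 library, 16.6 FPKM in the library labelled siTERT and 13.3 FPKM in the NT-Empty library. ZBTB17, the MYC partner MIZ1, stood at 12.7, 7.22 and 7.69 FPKM in the same order. For all 3 the HKR3 library was the highest, and for HIC2 the library labelled siTERT was also above the control, by a ratio whose interval ran from 1.12 to 1.38. ZBTB9 had a smaller ratio of HKR3 to NT-Empty of 1.30, at 9.99 and 7.68 FPKM. Its transcript sequence is shared with other annotation, so its level is uncertain.

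HIC1, the tumour suppressor paralogous to HIC2, stayed under the mean of 1 FPKM and was not counted. It was at 0.890 FPKM in the HKR3 library, against 0.0545 FPKM in the library labelled siTERT and a listed value of 0 in the NT-Empty library. Of its exon bases, 29.8% lie opposite exons of SMG6. ZBTB20, the liver repressor of AFP known from mice, was also under the mean of 1 FPKM, at 1.32 FPKM in the HKR3 library, 0.392 FPKM in the library labelled siTERT and 0.239 FPKM in the NT-Empty library. Its ratio of HKR3 to NT-Empty was 5.54, with a wide counting interval from 2.32 to 13.8, and 56.1% of its transcript sequence is shared with other annotated genes. AFP stood at 2831 FPKM in the HKR3 library, 3855 FPKM in the library labelled siTERT and 4055 FPKM in the NT-Empty library, and any relation between these 2 genes was not tested.

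ZBTB10, ZBTB40, ZBTB11 and MYNN were grouped here under telomeres or growth, and ZBTB10 binds variant telomeric repeats. Of the 4, only ZBTB10 is described here by a telomere role. All 4 were at least 1.5-fold higher, beside 15.3% of all genes and 48.6% of the family, with a median difference of 0.97. The group was chosen with earlier results of these data known, so its count says nothing about telomere roles. ZBTB11, needed for neutrophil development in zebrafish, stood at 14.0 FPKM in the HKR3 library, against 6.55 FPKM in the library labelled siTERT and 5.31 FPKM in the NT-Empty library. The ratio of HKR3 to NT-Empty was 2.64, with an interval from 2.13 to 3.30. Exons of other genes, chiefly ZBTB11-AS1, lie opposite 12% of its exon bases. ZBTB40 stood at 8.83, 4.35 and 3.69 FPKM in the HKR3, siTERT and NT-Empty libraries, a ratio of HKR3 to NT-Empty of 2.40 with an interval from 2.10 to 2.74.

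MYNN, myoneurin, stood at 21.2 FPKM in the HKR3 library, against 10.9 FPKM in the library labelled siTERT and 11.1 FPKM in the NT-Empty library. Exons of other genes, chiefly AC078795.1, lie opposite 13.9% of its exon bases. ZBTB10, which like ZBTB48 is known from telomeres, stood at 9.63 FPKM in the HKR3 library, 5.52 FPKM in the library labelled siTERT and 5.31 FPKM in the NT-Empty library, a ratio to NT-Empty of 1.81 with an interval from 1.44 to 2.27. For both genes the siTERT and NT-Empty libraries lay close together and the HKR3 library stood above them.

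The 3 members that bind methylated CpG had HKR3 to NT-Empty ratios between 0.952 and 2.15, and 2 of them were above the control, beside 48.6% of all genes. ZBTB38 stood at 10.7 FPKM in the HKR3 library, against 5.74 FPKM in the library labelled siTERT and 5.00 FPKM in the NT-Empty library, a ratio of HKR3 to NT-Empty of 2.15 with an interval from 1.80 to 2.57. ZBTB33, known as Kaiso, stood at 17.3, 12.9 and 12.9 FPKM in the same order, a ratio of 1.34 with an interval from 1.15 to 1.55. ZBTB4 stood at 6.79 FPKM in the HKR3 library, 6.35 FPKM in the library labelled siTERT and 7.12 FPKM in the NT-Empty library, and its interval for HKR3, from 0.833 to 1.09, included 1. The small negative difference of ZBTB4, -0.06, turned to 0.08 in TPM and to 0.07 with equal FPKM sums, and under each of these it was the only one of the 37 to change sign for the HKR3 library.

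Of the 7 measured members known from blood cells, 5 were above the control, beside 48.6% of all genes, with a median difference of 0.41. Besides BCL6, ZBTB1, needed for lymphocyte development in mice, was higher, at 12.3 FPKM in the HKR3 library, against 7.23 FPKM in the library labelled siTERT and 6.28 FPKM in the NT-Empty library. ZBTB46, a marker of classical dendritic cells, was low in every library, at 1.99, 1.25 and 1.08 FPKM in the HKR3, siTERT and NT-Empty libraries. ZBTB7A, a repressor of fetal globin genes, stood at 12.5 FPKM in the HKR3 library, 11.6 FPKM in the library labelled siTERT and 9.21 FPKM in the NT-Empty library, so both treated libraries were above the control. Of the exon bases of ZBTB1, 11.4% lie opposite those of ZBTB25, which was under 1 FPKM throughout.

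ZBTB7B, the factor ThPOK that sets the CD4 lineage of T cells, was among the highest members and was level, at 20.2 FPKM in the HKR3 library, 20.7 FPKM in the library labelled siTERT and 19.8 FPKM in the NT-Empty library. Its HKR3 ratio of 1.02 had an interval from 0.896 to 1.17. PATZ1, a regulator of thymocyte development, was lower in both treated libraries, at 19.8 FPKM in the HKR3 library, 20.2 FPKM in the library labelled siTERT and 23.2 FPKM in the NT-Empty library. Its HKR3 ratio was 0.855, with an interval from 0.760 to 0.962 on the deposited scale. The PATZ1 difference depended on that scale. For HKR3 it was -0.22 as deposited and -0.07 both with equal FPKM sums and in TPM. For the library labelled siTERT it was -0.19 as deposited and -0.15 with equal sums. ZBTB24, mutated in an immunodeficiency syndrome, stood at 3.02, 3.75 and 3.43 FPKM, and its HKR3 interval, from 0.716 to 1.08, included 1. ZBTB16, the gene PLZF of promyelocytic leukaemia fusions, stayed under the mean of 1 FPKM, at 1.11, 0.813 and 0.804 FPKM in the HKR3, siTERT and NT-Empty libraries.

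ZBTB47 had the lowest difference of the family. It stood at 0.959 FPKM in the HKR3 library, against 1.79 FPKM in the library labelled siTERT and 2.57 FPKM in the NT-Empty library. The ratio of HKR3 to NT-Empty was 0.374, with an interval from 0.234 to 0.608, and the library labelled siTERT lay between the other two. On log2(FPKM + 1) this was -0.86, inside the 2-fold rule because the added 1 FPKM compresses weakly expressed genes. ZBTB42, a muscle gene, stood at 1.28, 2.38 and 1.72 FPKM in the HKR3, siTERT and NT-Empty libraries, with an interval for HKR3 from 0.389 to 1.40. ZBTB18, a transcriptional repressor known from neuronal development, and ZBTB45 had HKR3 ratios of 1.11 and 1.16, and both intervals included 1. With ZBTB14, 3 of these 5 genes were above the control, beside 48.6% of all genes, and the median difference was 0.12.

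Of the 12 measured members with less studied roles, 10 were above the control, beside 48.6% of all genes, with a median difference of 0.62. Among them, ZBTB43 lay just under the 2-fold rule, at a difference of 0.999, as ZBTB40 lay just above it at 1.07. ZBTB43 stood at 5.45 FPKM in the HKR3 library, against 2.89 FPKM in the library labelled siTERT and 2.23 FPKM in the NT-Empty library, a ratio of HKR3 to NT-Empty of 2.45 with an interval from 2.0 to 3.03. ZBTB6 followed at 8.21, 4.25 and 3.75 FPKM, ZBTB26 at 3.83, 1.93 and 1.74 FPKM, ZBTB39 at 6.06, 2.83 and 3.12 FPKM, and ZBTB41 at 2.61, 1.88 and 1.27 FPKM, each in the order HKR3, siTERT and NT-Empty. In each of these the HKR3 library was the highest. By the plain FPKM ratio, without the added 1 FPKM, 11 of the 37 members were at least 2-fold higher, beside 8.30% of all genes, and 1, ZBTB47, was at most 0.5 of the control, beside 4.74% of all genes.

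ZBTB8A and ZBTB34 were moderately higher, with HKR3 to NT-Empty ratios of 1.77 and 1.51, and 38.0% of the ZBTB8A transcript sequence is shared with other annotated genes. ZBTB12 went the other way, at 1.82 FPKM in the HKR3 library, 2.31 FPKM in the library labelled siTERT and 3.13 FPKM in the NT-Empty library, a ratio of 0.582 with an interval from 0.382 to 0.897. Of the ZBTB12 transcript sequence, 13.3% is shared with other annotated genes, and 7.52% of its exon bases lie opposite exons of other genes, chiefly C2. ZBTB44, ZBTB3 and ZBTB22 had ratios of 1.19, 1.03 and 0.801, with intervals that included 1. Of the 9 members under the mean of 1 FPKM, 3 (ZBTB7C, ZBTB8B and ZBTB32) were listed at 0 in all libraries. ZBTB37 was at 0.946, 0.484 and 0.694 FPKM and ZBTB25 at 0.477, 0.938 and 0.783 FPKM in the HKR3, siTERT and NT-Empty libraries, both with counting intervals that included 1.

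The plasmid made ZBTB48 the most abundant gene of the family by far, so shared sequence between it and its relatives was measured. None of the 46 members shared a single unit of 31 bases with ZBTB48 in either orientation, over all their annotated transcripts. ZBTB48 took 0.531% of the summed FPKM of its library.

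**Figure D3:**
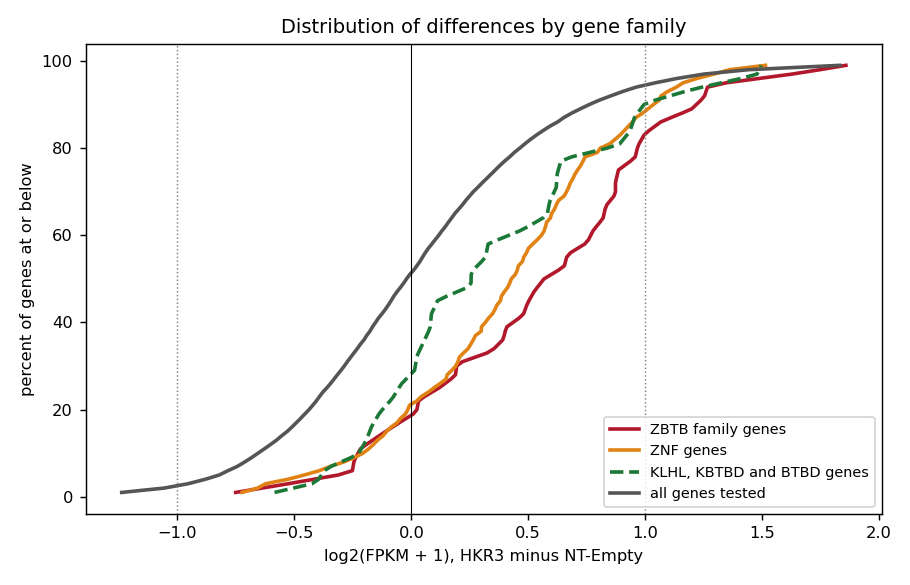
Percent of genes (vertical axis) at or below each difference in log2(FPKM + 1) between the HKR3 and NT-Empty libraries (horizontal axis), for the 37 ZBTB family genes, 355 ZNF genes, 32 KLHL, KBTBD and BTBD genes and all 10974 genes tested, with dotted lines at 2-fold. The family medians are 0.57, 0.43 and 0.26, beside -0.02 for all genes.

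Genes with either domain alone were also mostly above the control. Zinc finger genes named ZNF and a number, most of which lack a BTB domain, had a median difference of 0.43 over 355 genes. Of these, 279, or 78.6%, were above 0, beside 48.6% of all genes. At least 2-fold higher were 40, or 11.3%, beside 5.52% of all genes, and 1, or 0.28%, was at least 2-fold lower, beside 2.52%. BTB genes without zinc fingers, of the KLHL, KBTBD and BTBD families, had a median of 0.26 over 32 genes. Above 0 were 23, or 71.9%, and 3, or 9.38%, were at least 2-fold higher, beside the same 48.6% and 5.52% of all genes. The BTB zinc finger genes filed under other symbols, ZNF131 and GZF1, had HKR3 to NT-Empty ratios of 1.68 and 1.52. Over the 7588 genes whose mean FPKM lay within the range of the members, from 1.07 to 26.5 FPKM, the median was 0.06 and 6.62% were at least 2-fold higher. No difference between these families was tested.

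With every library brought to the mean of the 3 FPKM sums and the added value kept at 1 FPKM, an alternative chosen after seeing the data, the median of all genes moved by 0.14 and 12 of 37 members were at least 2-fold higher, beside 7.66% of all genes. Relative to the median of all genes, the members' median was 0.56 with equal sums and 0.59 as deposited. Of all genes past 2-fold, 83.6% were higher with equal sums and 68.6% as deposited. Conversion to TPM also equalises the sums but makes the added 1 worth 0.536 FPKM for the HKR3 library and 0.597 FPKM for the NT-Empty library. In TPM, 14 members were at least 2-fold higher, beside 9.03% of all genes. With a pseudocount of 0.1 FPKM, 10 members were at least 2-fold higher, beside 7.96% of all genes.

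The differences in the HKR3 library went with the base composition of the transcripts and with their length. Of the 13 measured members with the lowest GC content, from 32.5% to 41.0%, all were above the NT-Empty library, with a median difference of 0.82. Over all genes tested, of any GC content, 48.6% were above the NT-Empty library. Of the 11 members in the middle, 10 were above it with a median of 0.89. Of the 13 members with the highest GC content, from 54.8% to 65.4%, 7 were above it with a median of 0.02, and ZBTB47 and ZBTB12 were among these 13. The 10936 genes with a known GC content were divided at the same cut points, without outer limits. Their medians were 0.19, 0.01 and -0.20, from the lowest GC group to the highest. Across the 37 members, which come from the same libraries, Spearman's rho between GC content and the difference was -0.49, and across 10936 genes it was -0.28. For the length of the longest coding transcript, rho was 0.33 across the members and 0.22 across the 10936 genes. The median length was 4627 bases for the members and 3326 bases for all genes. Genes are not independent replicates, and the part of base composition or length in the result was not tested.

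**Figure D4:**
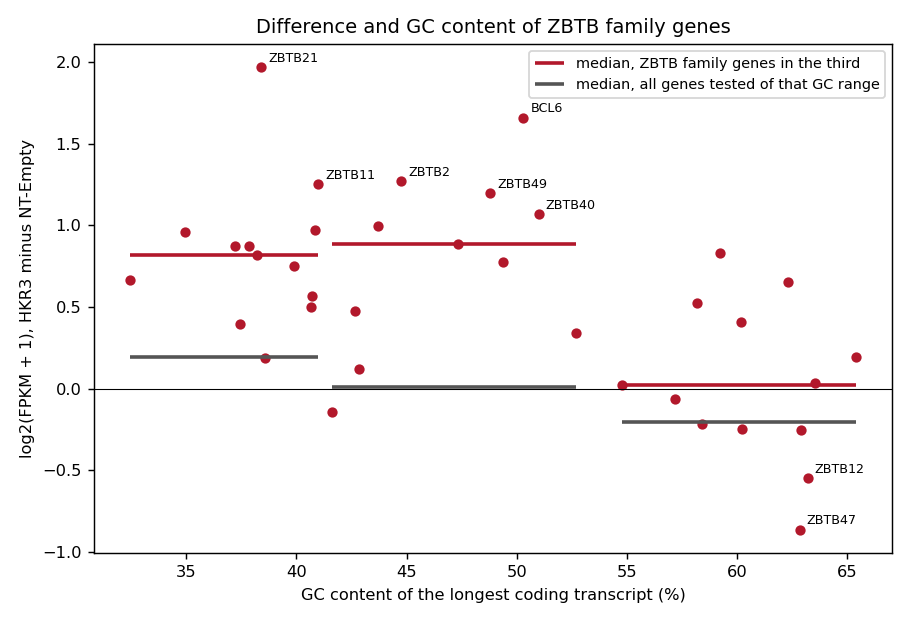
Difference in log2(FPKM + 1) between the HKR3 and NT-Empty libraries against the GC content, in percent, of the longest coding transcript of each of 37 ZBTB family genes (points). Red bars give the median of the family genes in each GC group (0.82, 0.89 and 0.02). Grey bars give the median of all genes divided at the same cut points, without outer limits (0.19, 0.01 and -0.20). Both are drawn over the GC range of the family genes.

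The partners of the family were centred near 0. Of 20 co-repressors, subunits of their complexes and other partners, none was at least 2-fold higher (5.52% of all genes) or lower (2.52%) in the HKR3 library. Above the control were 9 (48.6%), and the median difference was -0.01. BCOR, the co-repressor recruited by BCL6, stood at 13.9 FPKM in the HKR3 library, against 6.96 FPKM in the library labelled siTERT and 7.09 FPKM in the NT-Empty library. RCOR1, a scaffold of the histone demethylase KDM1A, stood at 15.8, 8.92 and 8.51 FPKM, and HDAC5, a class IIa histone deacetylase, at 11.5, 7.64 and 6.76 FPKM in the same order. HDAC1, a histone deacetylase of the SIN3 and NuRD complexes, stood lower at 74.0, 105 and 110.5 FPKM.

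Genes described elsewhere as targets of family members went in both directions. Of 20 such genes, 12 passed the filter, 3 were at least 2-fold higher in the HKR3 library, beside 5.52% of all genes, none was at least 2-fold lower, beside 2.52%, and the median difference was 0.09. CDKN2B, which encodes p15 and is a target of ZBTB17, stood at 34.4 FPKM in the HKR3 library, 10.8 FPKM in the library labelled siTERT and 4.24 FPKM in the NT-Empty library. SIRT1, a deacetylase repressed by HIC1, stood at 11.5, 3.96 and 4.79 FPKM, and ID2 at 273, 169 and 130.1 FPKM in the same order. CXCR4, a chemokine receptor on the same list, stood at 4.42, 2.36 and 1.72 FPKM. CDKN1A, a target shared by ZBTB2, ZBTB5, ZBTB17 and ZBTB49, stood at 8.71 FPKM in the HKR3 library, 33.7 FPKM in the library labelled siTERT and 15.8 FPKM in the NT-Empty library, so the treated libraries lay on opposite sides of the control. In the library labelled siTERT, 2 of the 12, CDKN2B and CDKN1A, were at least 2-fold higher, beside 0.282% of all genes.

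**Figure D5:**
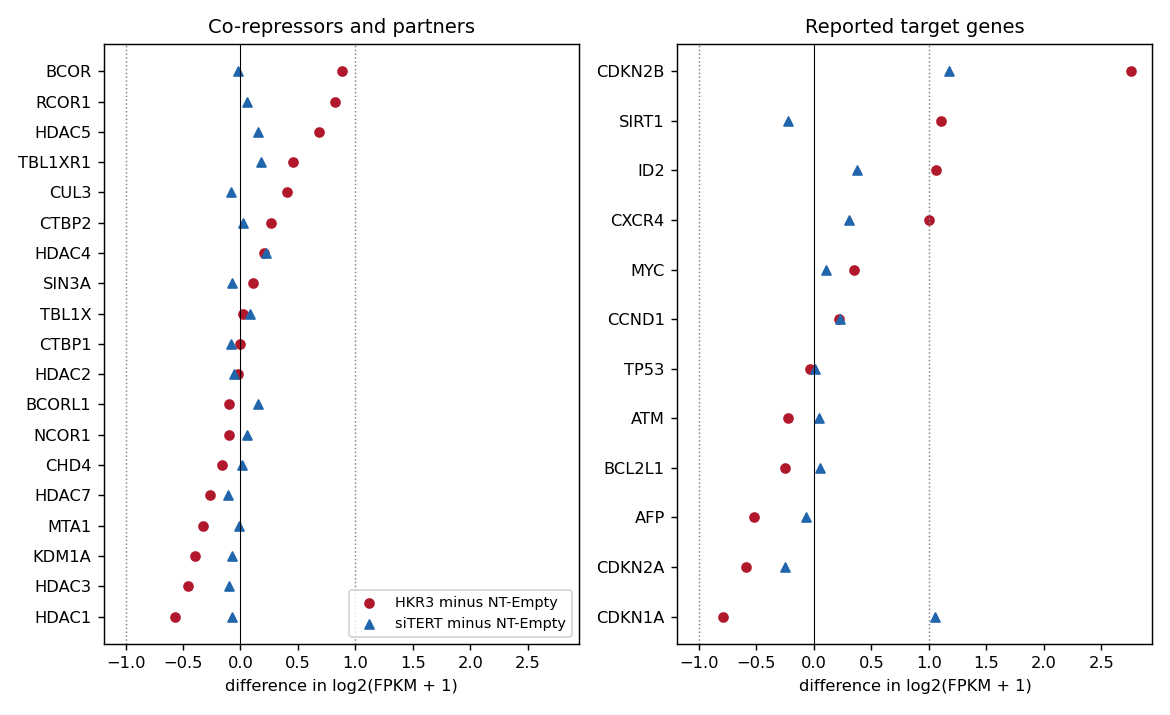
Difference in log2(FPKM + 1) from the NT-Empty library for 19 of the 20 co-repressors and partners (left) and 12 reported target genes (right) in the HKR3 (circles) and siTERT (triangles) libraries, with dotted lines at 2-fold. On the left the circles stay within 2-fold, and on the right CDKN2B, SIRT1 and ID2 lie above it for HKR3.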

How the data were processed

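The table deposited by the authors holds FPKM per gene and library for 19869 genes. The tools were the aligner STAR (2.5.0), Cufflinks and Cuffdiff (2.2.1), with build hg19, per the submitters' processing notes. Their settings, strand use and any scaling between libraries were not given in the sources used here. If the FPKM were scaled by mapped fragments alone, an abundant gene lowers the rest. Symbols from a gene name table matched 19310 identifiers. Differences were taken as log2(FPKM + 1) over genes whose mean reached 1 FPKM, computed with Python 3.11.15, pandas 2.3.3 and SciPy 1.17.1, and the calculation was tested on simulated data. Each group held 1 library, so no test between groups was made and a 2-fold rule was used. Fragments were estimated from the FPKM worth of 1 fragment in weakly expressed genes with 1 transcript of at least 1000 bases (62, 70 and 66 such genes in the HKR3, siTERT and NT-Empty libraries) and from each gene's shortest basic coding transcript in GENCODE 29. If FPKM was scaled further, they are scaled sizes. The fragment estimates set only the width of the intervals. Every member may be named. Values were given for members past 2-fold, the 10 highest and 10 lowest differences and the 5 highest levels, with others in brief, and for up to 4 genes of each other list. CDKN1A, AFP and markers named as listed at 0 or present were added after their values were seen. Members, lists and size rule were chosen with earlier results of these data known. Some results on other genes are not reported here. Alternatives were pseudocounts of 0.1 and 5 FPKM, no filter, a mean of at least 5 FPKM, scaling to TPM and, added later, scaling to equal FPKM sums.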

Additional observations from a re-analysis of the deposited data

How the results depend on the processing

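The upward shift of the ZBTB members in the HKR3 library kept its direction under each alternative tried, with a median between 0.31 and 0.83, but its size depended on the scale. The members at least 2-fold higher numbered 10 with a pseudocount of 0.1 FPKM, 3 with 5 FPKM, 14 in TPM and 12 with equal FPKM sums, an alternative chosen after seeing the data, against 6, and 1 was at least 2-fold lower with 0.1 FPKM, against 0. Their median was 0.31 with a pseudocount of 5 FPKM. Members at least 2-fold above both other libraries, an alternative set added after seeing the data, numbered 6 with 0.1 FPKM, 7 in TPM and 5 with equal sums, against 3. The share of all genes by this rule is given only for the main setting, at 3.67%, so the larger counts cannot be set beside all genes. Over all 10974 genes in the HKR3 library, 874 were higher with 0.1 FPKM, 238 with 5 FPKM, 991 in TPM and 841 with equal sums, against 606. Lower were 488, 93 and 165 with 0.1 FPKM, 5 FPKM and equal sums, against 277. The higher share was 68.6% as deposited, 82.7% in TPM and 83.6% with equal sums. In the library labelled siTERT, 17 genes were higher with a mean of at least 5 FPKM, 103 and 10 with 0.1 and 5 FPKM and 47 in TPM, against 31, and 5, 37, 57 and 3 were lower with a mean of at least 5 FPKM, no filter, 0.1 and 5 FPKM, against 22. The median of all genes was 0.124 (HKR3) and 0.026 (siTERT) in TPM and 0.117 and 0.025 with equal sums, a turned sign in both settings, -0.047 and -0.018 with a mean of at least 5 FPKM, and 0 in both without a filter. A smaller pseudocount weighs low genes more and a larger one less, and TPM changes both the scaling and the effective pseudocount. No paired analysis was possible because each group held 1 library. Counting limits the members of lowest level, and cultures were not replicated.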
